A study of Mus musculus with 2 samples.

Results

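The genes described here carry retinol in plasma or interconvert retinoids. They were measured in adult mouse liver and comprise Ttr, Rbp4, Stra6l, Rdh7, Rdh16, Rdh11, Dhrs3, Bco1, Cyp26a1 and Cyp26b1. They were taken from the gene and transcript quantifications by name, through Ensembl identifiers matched to mouse GENCODE symbols, and made up 10 of 43346 endogenous genes. Total RNA longer than 200 nucleotides had been sequenced from whole liver of C57BL/6J mice aged 8 weeks, with external spike-in RNAs added. A single group of 2 libraries was available, replicate 1 and replicate 2. The liver samples are catalogued separately but carry the same donor identifier, so the spread between them may be partly technical. Sex was not recorded and health state is given as unknown. With 1 group there was no comparison between conditions and no test, and every difference below is a distance between 2 libraries. The replicate 1 library held 83816487 endogenous counts and the replicate 2 library 71068191.

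Retinol, the alcohol form of vitamin A, leaves the liver bound to retinol-binding protein, which travels in plasma in a complex with transthyretin. Hepatocytes make both carriers, and hepatic stellate cells hold most of the body's stored retinyl esters. Inside cells retinol is oxidised reversibly to retinal by alcohol and short-chain dehydrogenases, retinal is oxidised irreversibly to retinoic acid, and enzymes of the Cyp26 family degrade retinoic acid, the ligand of the nuclear retinoid receptors. Retinal is also formed by cleavage of dietary beta-carotene.

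Levels are given as endogenous TPM, the deposited length-normalised values (TPM) rescaled without the spike-ins so that the endogenous genes sum to 1000000 in each library. Of the 10 members, 8 reached 1 TPM in both libraries, beside 6945 of 43346 endogenous genes and 6664 of 21474 protein-coding genes. Together the 10 members made up 0.111% of endogenous TPM in replicate 1 and 0.168% in replicate 2 (mean 0.139% ± 0.0400, SD, n = 2). Protein-coding genes as a whole took 12.2% of endogenous TPM in replicate 1 and 16.4% in replicate 2, and of that protein-coding share the members held 0.968% ± 0.0810 (SD, n = 2). The deposited TPM of 8 of 10 members was higher in replicate 2, as was the protein-coding share, while that of Rdh16 was lower and that of Bco1 equal, and the distance between the libraries is therefore read from scaled counts further on.

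The plasma carriers stood far above the other members. Ttr, which encodes transthyretin and lies on chromosome 18 at 20665280 to 20674321 (mm10, plus strand), reached 668 TPM in replicate 1 and 1038 TPM in replicate 2 (853 ± 262, SD, n = 2). By mean TPM it was the 22nd of 21474 protein-coding genes. Rbp4, which encodes the plasma retinol-binding protein (chromosome 19, 38116629 to 38125281, minus strand), reached 266 TPM in replicate 1 and 412 TPM in replicate 2 (339 ± 103, SD, n = 2), and ranked 49th. The carriers together held 84.2% of the members' TPM in replicate 1 and 86.5% in replicate 2.

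The proportion between the carriers was nearly the same in both libraries: Ttr was 2.51 times Rbp4 in replicate 1 and 2.52 times in replicate 2 on the TPM scale. Set against albumin, the most familiar hepatocyte product, Ttr stood at 9.58% of the Alb TPM in replicate 1 and 9.41% in replicate 2. Rbp4 stood at 3.82% of the Alb TPM in replicate 1 and 3.73% in replicate 2. Other tissues also make these carriers, Ttr in pancreatic islets and Rbp4 in adipose tissue. The islet hormone genes Ins1, Ins2, Gcg and Iapp were at 0 counts in both libraries, and the 7 islet genes summed to 0 TPM in replicate 1 and 0.281 TPM in replicate 2. Of 7 adipocyte genes 1 was detected, with a summed level of 3.83 TPM in replicate 1 and 5.95 TPM in replicate 2, and Adipoq had 46 counts in replicate 1 and 28 in replicate 2.

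**Figure D1:**
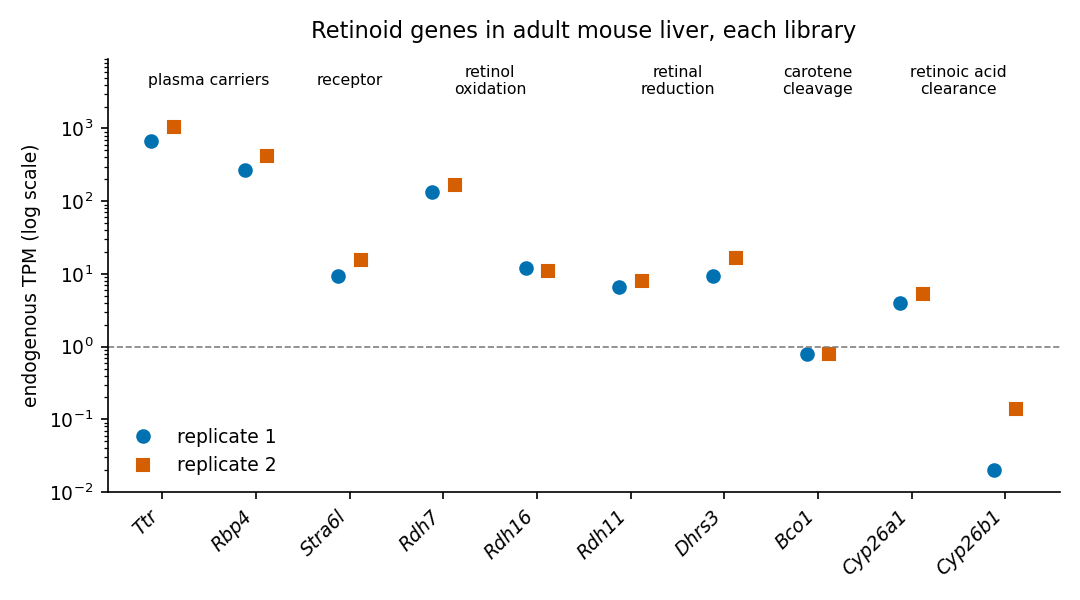
Level of each member in each library, as endogenous TPM on a log axis, grouped by role; circles are replicate 1, squares replicate 2, and the dashed line marks 1 TPM. Ttr and Rbp4 lie highest, Rdh7 lies between 133 and 169 TPM, and Bco1 and Cyp26b1 lie below the line in both libraries.

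Stra6l encodes a membrane receptor for Rbp4 related to the retinol transporter Stra6, and is known from mouse liver and intestine. The gene (chromosome 4, 45848664 to 45887008, plus strand) was detected at 9.47 TPM in replicate 1 and 15.5 TPM in replicate 2 (12.5 ± 4.26, SD, n = 2). The TPM of its ligand gene, Rbp4, was 28.1 times as high in replicate 1 and 26.6 times in replicate 2. Stra6, the receptor of the eye and other tissues, had 0 counts in both libraries. At the depths given above, 3 counts, the limit that a count of 0 allows, correspond to 0.0358 CPM (counts per 1000000 endogenous counts) in replicate 1 and 0.0422 CPM in replicate 2, counting error only.

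Among the enzymes, Rdh7 was the most abundant member. It encodes a microsomal short-chain dehydrogenase that oxidises retinol and also acts on hydroxysteroids. Rdh7 (chromosome 10, 127884028 to 127888817, minus strand) had 133 TPM in replicate 1 and 169 TPM in replicate 2 (151 ± 25.4, SD, n = 2), and ranked 127th among protein-coding genes. Rdh16, a retinol dehydrogenase of the same family (chromosome 10, 127801152 to 127846565, plus strand), had 12.1 TPM in replicate 1 and 11.1 TPM in replicate 2 (11.6 ± 0.726, SD, n = 2). The level of Rdh7 was 10.9 times that of Rdh16 in replicate 1 and 15.2 times in replicate 2 on the TPM scale.

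Both genes belong to a tandem cluster of 8 related genes spread over 248 kb of chromosome 10. Rdh7 held 54.9% ± 1.77 of the cluster's TPM (SD, n = 2). Hsd17b6, a hydroxysteroid dehydrogenase at the far end, followed with 42.5 TPM in replicate 1 and 81.0 TPM in replicate 2, and Rdh16f2 with 35.9 TPM in replicate 1 and 42.3 TPM in replicate 2. Rdh9 had 13.2 TPM in replicate 1 and 11.3 TPM in replicate 2, close to Rdh16 in both: Rdh16 was 0.923 times Rdh9 in replicate 1 and 0.980 times in replicate 2. The other 3 genes were near 0. Rdh1 had 28.2 counts in replicate 1 and 28.4 in replicate 2, and Rdh19 had 0 in replicate 1 and 1.46 in replicate 2. Rdh16f1, with 19.98 counts in replicate 1 and 9.80 in replicate 2, is uncertain, since it shares 2302 exon bases with Rdh9 and its deposited posterior SD was 55.9% of the count in replicate 1 and 105% in replicate 2.

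**Figure D2:**
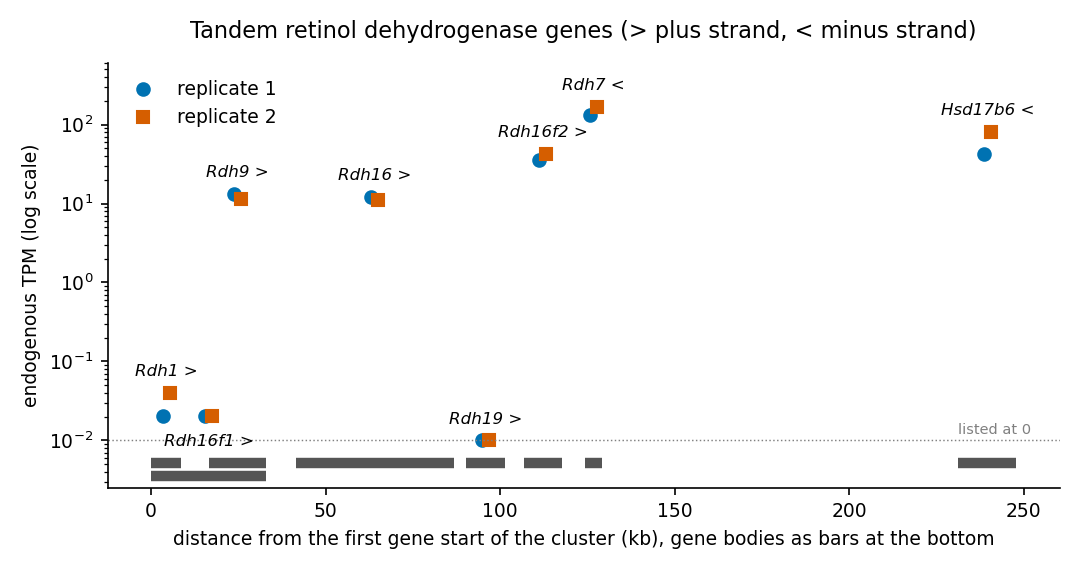
Level of the 8 genes of the chromosome 10 cluster (endogenous TPM, log axis) against distance in kb from the first gene start; circles are replicate 1, squares replicate 2, dark bars are gene bodies, and points on the dotted line are listed at 0 TPM. Rdh7, Hsd17b6 and Rdh16f2 lie highest, and Rdh9 and Rdh16 lie at nearly the same level.

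Counting separates these copies only where their sequences differ. Over the coding sequence of the GENCODE M21 transcripts (mm10), Rdh16 and Rdh9 were 96.3% identical, with an identical run of 229 bases, whereas Rdh7 and Rdh16 were 85.8% identical with a longest identical run of 71 bases. The 60 coding bases below, from coding base 612 of Rdh7, 615 of Rdh16 and Rdh9 and 618 of Rdh16f2, are the stretch with the most variable positions among the 4 genes, 31 of 60. They are shown because Rdh7 can be told apart in them at many positions and Rdh9 at none, and capitals mark each base that differs from Rdh16.
Rdh7: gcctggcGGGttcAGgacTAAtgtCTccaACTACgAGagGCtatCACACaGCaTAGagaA
Rdh16: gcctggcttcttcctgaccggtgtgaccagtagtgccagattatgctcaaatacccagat
Rdh9: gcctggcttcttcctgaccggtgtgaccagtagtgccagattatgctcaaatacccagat
Rdh16f2: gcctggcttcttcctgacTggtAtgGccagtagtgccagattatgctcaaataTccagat

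Rdh7 differed from Rdh16 at 30 of these positions and Rdh16f2 at 4, and Rdh9 at 0. The deposited posterior SD of the Rdh16 count was 0.0509% of the count in replicate 1 and 0.0913% in replicate 2, and that of Rdh9 was 0.138% in replicate 1 and 0.236% in replicate 2. Rdh16 also shares 381 of its 6217 exon bases with the pseudogene Rdh18-ps on the same strand, which had 21.7 counts in replicate 1 and 14.1 in replicate 2. In GENCODE M21 no gene on the opposite strand overlaps a member.

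Rdh11 and Dhrs3 work in the opposite direction and reduce retinal to retinol. Dhrs3, which is itself induced by retinoic acid (chromosome 4, 144892827 to 144928209, plus strand), had 9.33 TPM in replicate 1 and 16.3 TPM in replicate 2 (12.8 ± 4.94, SD, n = 2). Rdh11 (chromosome 12, 79174337 to 79192293, minus strand) had 6.60 TPM in replicate 1 and 7.97 TPM in replicate 2 (7.29 ± 0.969, SD, n = 2). The levels of Dhrs3, Stra6l and Rdh16 overlapped one another, and the order of these 3 genes differed from library to library. Rdh7 exceeded Rdh11 20.1-fold in replicate 1 and 21.2-fold in replicate 2.

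Bco1, the enzyme that cleaves beta-carotene into retinal (chromosome 8, 117095854 to 117133720, plus strand), lay below the detection level with 0.783 TPM in both libraries, from 517 counts in replicate 1 and 337 in replicate 2. Rescaled over protein-coding genes alone, its mean level was 5.61 TPM and 9 members reached 1 TPM in both libraries. Whether Bco1 counts as detected thus depends on the scale. Bco2, which cleaves carotenoids off centre in mitochondria, was 3.40 times as abundant in replicate 1 and 3.59 times in replicate 2, with 2.66 TPM in replicate 1 and 2.81 TPM in replicate 2. Bco1 is best known from the intestinal epithelium. Of 7 intestinal genes 2 were detected, with a summed level of 12.6 TPM in replicate 1 and 7.22 TPM in replicate 2. Sis, Alpi, Isx and Cdx1 were at 0 counts in both libraries, while Fabp2 had 11.4 TPM in replicate 1 and 5.77 TPM in replicate 2.

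Of the retinoic acid hydroxylases, Cyp26a1 was detected and Cyp26b1 was not. Cyp26a1 (chromosome 19, 37697798 to 37701536, plus strand) had 4.03 TPM in replicate 1 and 5.31 TPM in replicate 2 (4.67 ± 0.904, SD, n = 2), from 1987 counts in replicate 1 and 1680 in replicate 2. Cyp26c1, which ends shortly before Cyp26a1 on the same chromosome, had 4 counts in replicate 1 and 1 in replicate 2. Cyp26b1 (chromosome 6, 84571414 to 84593908, minus strand) had 26 counts in replicate 1 (exact Poisson 95% interval 17.0 to 38.1, counting error only) and 126 in replicate 2 (105 to 150), or 0.0201 TPM in replicate 1 and 0.141 TPM in replicate 2.

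The Cyp26a1 promoter is a textbook target of retinoic acid receptors, which bind direct repeats of a short core. The 300-base RefSeq promoter windows (GRCm38.p6, 250 bases before to 50 after each start) were searched on both strands for a repeat of AGGTCA, of AGTTCA, of GGGTCA or of GGTTCA, or of any mix of these, with a spacing of 5 or 2 bases. Promoters were on file for 9 of the 10 members, 15 windows in all, and 1 window held a match, that of Cyp26a1. Among 32851 windows of all genes, 120 held a match, or 0.365%, and 32 held one with a spacing of 5, or 0.0974%. Of 58 windows of other retinoid genes 1 matched, that of the receptor gene Rarb, the other textbook case. The matched stretches, at chr19:37697776-37697792 for Cyp26a1 and chr14:16575513-16575529 for Rarb, are given on the strand of the repeat with its cores in capitals, so that their likeness can be seen.
Cyp26a1: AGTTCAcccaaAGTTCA
Rarb: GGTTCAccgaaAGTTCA

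The Cyp26a1 repeat lies 32 to 16 bases before the RefSeq start and on the strand opposite to the gene. Its surroundings are shown as the 240 bases up to the GENCODE start, chr19:37697558-37697797 on the plus strand, with the cores in capitals, here as the reverse complement of the repeat above.
Cyp26a1 upstream: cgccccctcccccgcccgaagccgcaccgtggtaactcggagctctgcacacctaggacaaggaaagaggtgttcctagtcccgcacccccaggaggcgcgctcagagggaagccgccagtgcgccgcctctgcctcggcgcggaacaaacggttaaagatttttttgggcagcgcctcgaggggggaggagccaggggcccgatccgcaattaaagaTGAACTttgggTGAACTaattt

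A match describes these letters and was not tested for binding. Both genes are textbook cases of such repeats, so their matches say nothing about the members as a set. Among genes listed as inducible by retinoic acid, Cyp26a1, Dhrs3, Lrat and Tgm2 were detected in both libraries. Crabp2, Stra6 and Cdx1 of that list were at 0 counts in both libraries. Rarb had 0.622 TPM in replicate 1 and 1.11 TPM in replicate 2.

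The distance between the libraries was then read from counts. It is given as the log2 ratio of replicate 1 over replicate 2, after scaling by the trimmed mean of M-values (TMM), with 0.5 CPM added to each side, and has no replicate check. Among all 7702 genes with a mean of at least 1 TPM and 10 counts, 182 lay over 2-fold apart, or 2.36%, of which 121 were higher in replicate 1 (1.57%) and 61 higher in replicate 2 (0.792%). Of the 8 members past that filter 0 lay over 2-fold apart, 6 lay within the central 50% of all genes (-0.16 to 0.23) and 8 within the central 95% (-0.66 to 0.80). Their median log2 ratio was 0.03, beside 0.04 for all genes. A count of 0 in 8 is close to what a background of 2.36% gives, and nothing particular to the members can be read from it.

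The carriers moved together, with a log2 ratio of -0.09 for both Ttr and Rbp4. Stra6l stood at -0.16 and Dhrs3 at -0.34, while Cyp26a1 stood at 0.15, Rdh7 at 0.20, Rdh11 at 0.21 and Rdh16 at 0.66. These signs are relative to the bulk of genes. Scaled by the spike-ins instead, the median of all genes shifted to -0.27, and by deposited TPM to -0.51, and Rdh16 was then the one member of the 8 with a positive ratio. Measured from the median of all genes, 4 members, Cyp26a1, Rdh11, Rdh16 and Rdh7, lay above it with TMM and also with deposited TPM. DESeq2 size factors and spike-in scaling gave the same 4, but could hardly do otherwise. They differ from TMM by a constant per library, which shifts the members and the median nearly alike. Deposited TPM rests on the same counts, over member lengths that differ little between the libraries, so it is hardly a separate check either.

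**Figure D3:**
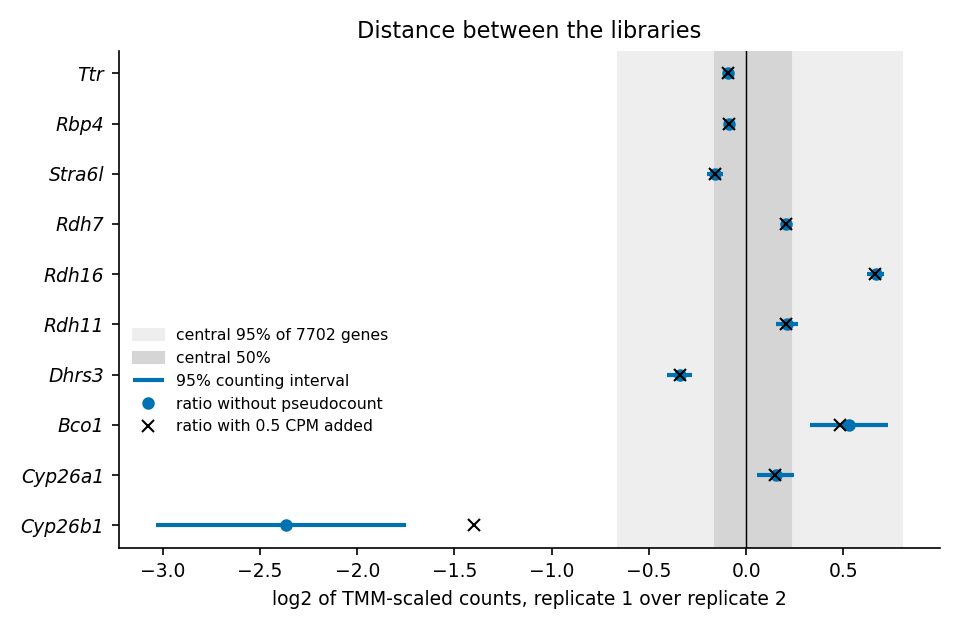
Log2 ratio of TMM-scaled counts, replicate 1 over replicate 2, for each member; points are ratios without a pseudocount, lines their 95% counting intervals, crosses the ratios with 0.5 CPM added, and bands the central 50% and 95% of 7702 genes. Rdh16 lies at 0.66 inside the wider band, and Cyp26b1 lies outside it at -2.37 without the pseudocount.

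Rdh16 had 11228 counts in replicate 1 and 6650 in replicate 2, and with TMM or DESeq2 scaling its ratio was the farthest from 0 of the 8 members past the filter. With spike-in scaling Dhrs3 was farthest, at -0.66 beside 0.35 for Rdh16, and with deposited TPM Dhrs3 stood at -0.81 and Rdh16, then nearest to 0, at 0.13. Its neighbour Rdh9 shared the direction, with a log2 ratio of 0.79. In the same libraries the list of genes that mark hepatocytes around the central vein was higher in replicate 1 for 8 of 8 tested genes (median log2 ratio 0.67, Glul 1.05, summed level 1025 TPM in replicate 1 and 974.8 TPM in replicate 2). That list had 8 of 11 genes detected. Of those below the filter, Axin2 stood at -0.17, Lgr5 at -0.02 and Tbx3 at 0.45. The list for hepatocytes around the portal vein, 11 of 11 detected, had a median of -0.34, with 7 of 11 genes higher in replicate 2 (summed level 1500 TPM in replicate 1 and 2437 TPM in replicate 2). The part of either list in the Rdh16 ratio was not tested. In whole tissue, fewer cells of a type and less RNA per cell cannot be told apart.

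Cyp26b1 did not pass the filter and is set beside its own counting error. Without the pseudocount its log2 ratio was -2.37 (exact conditional binomial 95% interval -3.03 to -1.75, counting error only), and with it -1.40. The size thus depends on the pseudocount, while the same amount added to both sides cannot change the sign. Bco1, also outside the filter, stood at 0.48 with the pseudocount. Beside Cyp26b1, adrenal cortex genes had higher levels in replicate 2, with 0 of 7 detected in both libraries. The 7 genes summed to 0.181 TPM in replicate 1 and 13.96 TPM in replicate 2, and Star had 48 counts in replicate 1 and 2021 in replicate 2. The stellate cell list, 9 of 15 detected, summed to 53.0 TPM in replicate 1 and 87.2 TPM in replicate 2. Its median log2 ratio was -0.22, and 7 of 9 tested genes were higher in replicate 2. Pancreatic acinar genes, 10 of 10 detected, went the other way, 150 TPM in replicate 1 and 50.4 TPM in replicate 2, with 10 of 10 genes over 2-fold higher in replicate 1. The part of these lists in any member's ratio was not tested. The hepatocyte list, 10 of 10 detected, summed to 12685 TPM in replicate 1 and 20462 TPM in replicate 2, which fits the tissue label. Its median log2 ratio was -0.10, and 7 of 10 genes were higher in replicate 2. The summed TPM of the stellate and hepatocyte lists both carry the general shift of deposited TPM toward replicate 2.

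The most abundant transcript of each member was the same in both libraries. Of 29 annotated transcripts, it was shared for 10 of 10 members, by point estimates and by posterior means. Ttr and Cyp26a1 have 1 annotated transcript each, so theirs could not differ, and no count over all genes is set beside this one. By point estimate 4 members, Ttr, Cyp26a1, Rdh7 and Cyp26b1, had a single transcript above 0. For Cyp26b1 this split is not resolved: by the deposited posterior means the main form held 52.6% in replicate 1 and 63.9% in replicate 2, and a second form with the same coding sequence held the rest. The main Rbp4 form, with 606 coding bases, held 95.9% of the gene's TPM in replicate 1 and 96.2% in replicate 2, the rest being a form with 738 coding bases. The main Bco1 form, with 1701 coding bases, held 93.4% in replicate 1 and 100% in replicate 2 by point estimate, and 88.0% in replicate 1 and 89.7% in replicate 2 by posterior mean. The second Bco1 form had 25.1 counts with a posterior SD of 24.5 in replicate 1, so the point estimates differ by no more than the estimation error.

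Rdh11 was split between protein-coding forms. The form with 951 coding bases held 78.8% in replicate 1 and 87.6% in replicate 2, and the form with 903 coding bases held 21.2% in replicate 1 and 12.4% in replicate 2. The coding form of Rdh16 held 92.1% in replicate 1 and 94.9% in replicate 2, and the larger of its forms annotated for nonsense-mediated decay held 6.74% in replicate 1 and 3.65% in replicate 2. The main coding form of Stra6l, with 1866 coding bases, held 91.8% in replicate 1 and 92.5% in replicate 2.

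Dhrs3 had the most divided transcripts of the members. The main form, with 831 coding bases, held 56.6% in replicate 1 and 58.9% in replicate 2, a form with 909 coding bases held 13.2% in replicate 1 and 17.5% in replicate 2, and a form annotated for nonsense-mediated decay held 12.4% in replicate 1 and 11.3% in replicate 2. Protein-coding forms together took 82.6% ± 1.26 of the Dhrs3 TPM (SD, n = 2). The mean TPM of Dhrs3 therefore counts some RNA not annotated as coding, unlike that of Ttr or Cyp26a1.

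**Figure D4:**
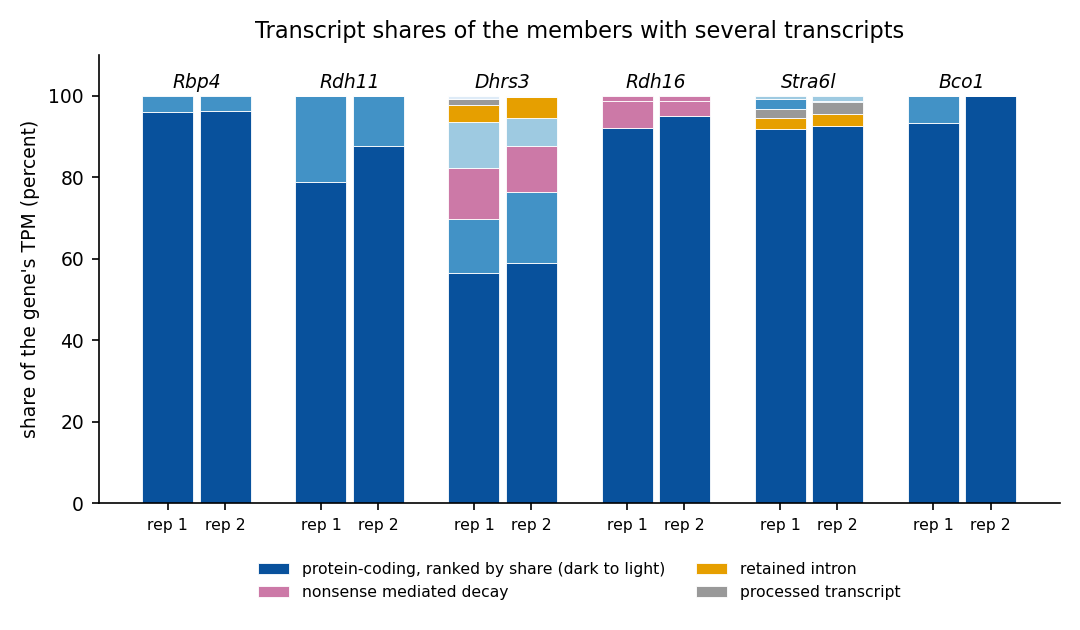
Share of each gene's TPM held by each annotated transcript, in percent, for the 6 members with more than 1 transcript above 0 in a library; each pair of bars is replicate 1 and replicate 2, blues are protein-coding forms and other colours the other classes. Dhrs3 is the most divided, and the minor coding form of Rdh11 is larger in replicate 1 (21.2%) than in replicate 2 (12.4%).

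The members were then set among 55 other retinoid genes, of which 27 were detected in both libraries and 10 had 0 counts in both. Among all protein-coding genes, 6664 of 21474 were detected. Of the 28 other retinoid genes that passed the filter, 2 lay over 2-fold apart, both higher in replicate 2. Over all genes the share was 2.36% in either direction and 0.792% higher in replicate 2. No excess is read from a count of 2. Lpl, which encodes lipoprotein lipase, was 1 of these 2 genes, with 1.05 TPM in replicate 1 and 4.44 TPM in replicate 2 and a log2 ratio of -1.46. The median log2 ratio of the 28 was 0.15. Of 21 other retinol and retinal dehydrogenases 11 were detected, with the cytosolic alcohol dehydrogenase Adh1 far ahead at 368 TPM in replicate 1 and 407 TPM in replicate 2. That is 2.77 times Rdh7 in replicate 1 and 2.41 times in replicate 2. Rdh10, the partner of Dhrs3 in the retinol and retinal cycle, had 1.92 TPM in replicate 1 and 2.74 TPM in replicate 2.

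Of 6 genes listed under the oxidation of retinal to retinoic acid, 4 were detected. Aldh1a1, a retinal dehydrogenase, had 96.1 TPM in replicate 1 and 77.1 TPM in replicate 2, against which Cyp26a1 was 23.8-fold lower in replicate 1 and 14.5-fold lower in replicate 2. Aldh8a1 followed with 41.9 TPM in replicate 1 and 57.3 TPM in replicate 2. Of the nuclear receptors, 2 of 6 were detected, Rxra with 11.8 TPM in replicate 1 and 18.6 TPM in replicate 2, and Rxrb with 1.33 TPM in replicate 1 and 2.47 TPM in replicate 2. Rara, below the detection level, had 0.401 TPM in replicate 1 and 0.673 TPM in replicate 2.

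Retinyl ester genes were detected for 5 of 7. Lrat, which esterifies retinol and marks stellate cells, had 1.36 TPM in replicate 1 and 2.68 TPM in replicate 2, far below the carriers. Of the intracellular lipid-binding proteins listed, Fabp5, which also binds retinoic acid, had 9.02 TPM in replicate 1 and 7.18 TPM in replicate 2. The other uptake genes detected, 2 of 4, were Scarb1 with 7.78 TPM in replicate 1 and 15.9 TPM in replicate 2 and Cd36 with 6.34 TPM in replicate 1 and 7.34 TPM in replicate 2. Scarb1 stood at 0.822 times Stra6l in replicate 1 and 1.03 times in replicate 2.

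**Figure D5:**
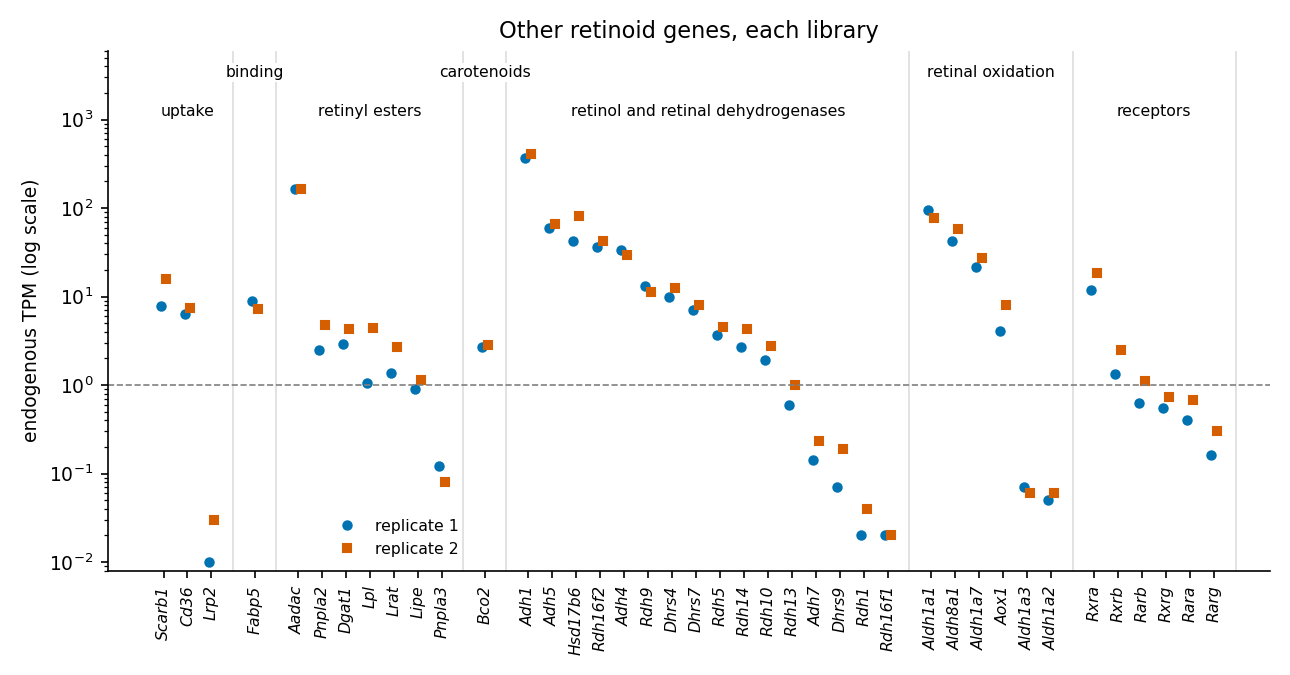
Level of other retinoid genes with at least 20 counts over both libraries, as endogenous TPM on a log axis, grouped by role and sorted by mean; circles are replicate 1, squares replicate 2, and the dashed line marks 1 TPM. Adh1, Aadac and Aldh1a1 lead their groups, and Rara and Rarg lie below the line in both libraries.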

How the data were processed

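Each library has a gene and a transcript table. Per the notes deposited with each library, the authors quantified on mm10 with GENCODE M4. The aligner and quantifier were not given in the sources used here, and the headings match the output format of RSEM. The deposited values used were expected counts, TPM, FPKM (as an alternative threshold), transcript percent shares, and, as a signal per gene, the posterior SD and interval bounds of the estimates. The authors' expected counts divide reads that match several genes among them, and deposited TPM has 2 decimals, which limits the precision of the lowest levels.

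Each table has 69691 rows: 43346 genes, 97 spike-ins and 26248 tRNA rows with 0 counts. Spike-ins, 1.20% and 1.06% of counts in replicates 1 and 2, were left out. Symbols, coordinates and transcript classes came from GENCODE M21 (mm10), which matched 42462 gene identifiers, and transcript lengths can differ from M4. Rounded expected counts were scaled by TMM in edgeR 4.0.16 (R 4.3.3), checked on simulated data, with DESeq2 1.42.0 size factors as an alternative, and tables were made with pandas 2.3.3 and scipy 1.17.1. The added 0.5 CPM (counts per 1000000) corresponds to 39.8 counts in replicate 1 and 37.4 in replicate 2. Intervals are at 95% and cover counting error only. Neither edgeR nor DESeq2 was used for a test, since there is 1 group.

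The 10 members were described whatever their level, as were detected genes of the retinoid lists and their defining genes. Level neighbours were the 3 protein-coding genes nearest a member of at least 10 TPM. An item of the retinoid lists is not reported here. The members and lists were chosen with earlier results of these data known.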

Additional observations from a re-analysis of the deposited data

How the results depend on the processing

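Detected genes, shares and ratios were recomputed under other thresholds, scalings, pseudocounts and estimates. Of the values for the set of members, 5 moved. These were shares beyond the replicate SD, or the median ratio beyond the medians of the members' counting interval bounds. Of the values for single members, 30 moved by like rules and 60 did not. The 60 are no measure of stability. With n = 2, a level or share from a single library lies within the SD by arithmetic, so it could not move. DESeq2 size factors and TMM without a filter shift each member's ratio by less than the allowance set, so those ratios could hardly move either. Detected members numbered 8 to 10, and 0 members past the filter lay over 2-fold apart under TMM and each of the 5 alternatives run for that count. Over all genes past the filter, 182 of 7702 lay over 2-fold apart with TMM or DESeq2 size factors. It was 254 of 7702 with spike-in scaling and 713 of 7696 with deposited TPM. With 8 members a count of 0 is close to what each of these shares gives. TMM without a filter and the smaller pseudocount hardly change the ratios of these 8, so they are no separate checks. The members' share of 0.139% became 0.968% over protein-coding TPM and 0.468% over expected counts, and the carriers' share of the members, 85.4% on TPM, became 76.0% on expected counts, which take no account of length. The members' median log2 ratio became -0.29 with spike-in scaling and -0.51 with deposited TPM, beside -0.27 and -0.51 for all genes (the cause was not tested). With a single replicate the detected members numbered 8 to 8, other retinoid genes 27 to 29, the share ran from 0.111% to 0.168% and the carriers' share from 84.2% to 86.5%. A ratio needs both libraries and was not recomputed without one. At 0.1 TPM in both libraries 34 other retinoid genes were detected, and at 10 counts 40. No paired analysis was possible because a lone group gives no pairs.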

Other observations

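The protein-coding genes nearest in level to the 3 most abundant members, by distance of log2(TPM + 1) over the 2 libraries, were Serpina1c, Hpx and C3 for Ttr, Tdo2, Mat1a and mt-Cytb for Rbp4, and Ugt2b5, Cyp2c69 and Ndufa4 for Rdh7. Serpina1c, a serine protease inhibitor of plasma, had 656 TPM in replicate 1 and 963 TPM in replicate 2 (distance 0.112), and Hpx, the plasma haem carrier, had 623 TPM in replicate 1 and 1162 TPM in replicate 2. Tdo2, which opens the ring of tryptophan, had 261 TPM in replicate 1 and 383 TPM in replicate 2 (distance 0.108). Ugt2b5, a glucuronosyltransferase, had 137 TPM in replicate 1 and 173 TPM in replicate 2 (distance 0.0531). With 2 libraries such likeness is mostly likeness of level.

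Rbp4 and Cyp26a1 lie 415 kb apart on chromosome 19, and their mean levels were 339 and 4.67 TPM.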
